A study of Rattus norvegicus with 15 samples.

Results

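The comparison described here sets 3 RNA-seq libraries of rat Odora cells given 200 µM zinc gluconate for 6 h against 3 libraries of the same cells given 100 µM for 6 h, 6 of the 15 libraries in the series. The libraries were chosen by their titles, and each level is set beside 3 libraries of untreated cells, for which the labels give no time. Odora is an established cell line from the olfactory epithelium of the rat, used here undifferentiated and labelled as olfactory neuron, and zinc gluconate is a zinc salt. No genotype or agent other than the zinc salt is given. The remaining groups, 100 µM for 12 h and for 24 h, enter the fit and the check of the labels. Libraries of a group are numbered 1 to 3, and whether separate cultures gave rise to them is not stated, so a p-value reflects only the spread among these samples, possibly a technical one. As in any bulk sample, fewer cells of a kind and less RNA per cell cannot be told apart.

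Values are gene counts, given as CPM, the counts of a gene per 1000000 counts of its library, after scaling of the library totals by TMM. Differences are log2 ratios ± standard error from edgeR's quasi-likelihood test fitted to all 15 libraries, and a gene is called, or said to have risen or fallen, where its Benjamini-Hochberg adjusted p was under 0.05. Totals were 35181487, 10333922 and 12249338 counts at 100 µM, 13710678, 14955915 and 17243353 at 200 µM and 23676069 to 28020494 in the controls. At these depths the detection floor was set at 3 counts, or 0.0778 to 0.261 CPM, which covers counting error only. Of 16832 gene identifiers 10575 passed the filter on low counts and were tested.

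The dose label carries a doubt that touches every result below. Each 200 µM library had a near match among the libraries labelled 100 µM for 24 h: a chi-square statistic of their counts, divided by its degrees of freedom, came to 1.36 to 1.42 for matched pairs, 3.33 or more for unmatched pairs of the same labels and 3.50 or more within any group. Between these labels edgeR called 0 genes, as did limma-voom and DESeq2. Of the 10575 genes tested only 69 had an unadjusted p under 0.05 by edgeR. Among genes above 50 CPM no log2 difference between them exceeded 0.16 in size. With the libraries of the 24 h label in place of the 200 µM ones, 5738 genes differed from 100 µM at 6 h. Both labels enter the fit as separate groups although their libraries may not be independent, a limit on its standard errors and p-values. Without the 24 h group 5695 genes were called between the doses, beside 5663 with it. The differences below therefore separate the libraries labelled 200 µM from those labelled 100 µM, and which exposure the former had cannot be settled from these files.

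Heart muscle transcripts marked some of the libraries. Mybpc3, Myl3, Myl2, Actc1, Myh7 and Myh6, which encode parts of the heart's contractile apparatus, summed to 106, 26.7 and 107 CPM in the controls, 49.4 CPM in replicate 1 at 100 µM, 0.348 and 0.376 CPM in replicates 2 and 3, and 0.156 to 0.337 CPM at 200 µM. Where a term for those 4 libraries (the heart term) moved a count over all tested genes by more than 1.5 times, both forms are given. All 3 controls carry the term, so its size comes from 100 µM replicate 1 against replicates 2 and 3. Between the doses it acts as leaving out replicate 1. At 100 µM against control it sets replicate 1 alone beside the controls. At 200 µM against control it shifts the ratio by the gap between replicate 1 and the other 100 µM libraries. A count with the term is therefore not one corrected for heart transcripts. Of the markers of the olfactory lineage, Gap43, Neurog1 and Cnga2 were at 0 in all 9 libraries, and Omp, the marker of mature olfactory neurons, did not pass the filter.

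Zinc that enters a cell is bound by metallothioneins and carried out by the exporter encoded by Slc30a1, and the genes of both are switched on by the zinc-sensing factor MTF1 through metal response elements. Misfolded cytosolic protein releases the heat shock factor HSF1, which binds heat shock elements at chaperone genes. Misfolded protein in the endoplasmic reticulum (ER), lack of amino acids and other stresses converge on the factor ATF4, which acts through C/EBP-ATF response elements on genes of amino acid supply and on the gene of the factor CHOP. Oxidants and electrophiles release the factor Nrf2, which acts on genes of glutathione synthesis and detoxification.

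The promoters of 7 genes that carry the results are shown, so that the letters these factors are known for can be seen beside the levels. They are RefSeq windows of assembly GRCr8, from 250 bases before to 50 after the start of the gene, 5′ to 3′ on the gene's strand, and 8620 tested genes had such a window. Capitals mark the metal response letters TGCNCNC in Mt1 and Mt2A, the heat shock element in Hsph1 and Hspa8 (GAA, TTC and GAA, parted by 2 free letters each), and the C/EBP-ATF element TGATGNAA in Chac1, Trib3 and Herpud1, on either strand. N is any letter, so the metal response letters are a loose form of that element's core. They can mark stretches that a stricter form would leave out.
Mt1: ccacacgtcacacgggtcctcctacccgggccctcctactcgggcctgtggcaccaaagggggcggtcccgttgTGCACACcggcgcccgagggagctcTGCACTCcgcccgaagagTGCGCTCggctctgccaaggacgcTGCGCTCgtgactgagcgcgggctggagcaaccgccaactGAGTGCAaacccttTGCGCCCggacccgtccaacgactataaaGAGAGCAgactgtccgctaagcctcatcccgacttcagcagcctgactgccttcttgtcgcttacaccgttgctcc
Mt2A: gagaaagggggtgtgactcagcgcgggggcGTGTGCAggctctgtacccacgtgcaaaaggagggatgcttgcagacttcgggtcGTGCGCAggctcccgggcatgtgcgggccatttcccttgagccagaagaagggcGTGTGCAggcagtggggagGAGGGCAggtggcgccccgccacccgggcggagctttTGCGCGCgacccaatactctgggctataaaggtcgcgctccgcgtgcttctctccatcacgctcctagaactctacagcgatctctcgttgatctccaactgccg
Hsph1: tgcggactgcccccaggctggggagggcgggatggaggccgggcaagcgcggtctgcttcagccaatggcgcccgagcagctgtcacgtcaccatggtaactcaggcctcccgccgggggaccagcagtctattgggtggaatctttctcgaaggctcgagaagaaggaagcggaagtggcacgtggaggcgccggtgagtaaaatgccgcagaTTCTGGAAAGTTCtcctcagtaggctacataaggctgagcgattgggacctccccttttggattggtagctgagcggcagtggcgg
Hspa8: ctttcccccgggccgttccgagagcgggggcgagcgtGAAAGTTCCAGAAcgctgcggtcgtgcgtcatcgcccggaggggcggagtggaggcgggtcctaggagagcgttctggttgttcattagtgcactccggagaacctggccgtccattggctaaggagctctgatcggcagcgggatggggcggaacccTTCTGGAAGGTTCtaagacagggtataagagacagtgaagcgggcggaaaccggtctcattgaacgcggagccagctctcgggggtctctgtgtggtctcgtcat
Chac1: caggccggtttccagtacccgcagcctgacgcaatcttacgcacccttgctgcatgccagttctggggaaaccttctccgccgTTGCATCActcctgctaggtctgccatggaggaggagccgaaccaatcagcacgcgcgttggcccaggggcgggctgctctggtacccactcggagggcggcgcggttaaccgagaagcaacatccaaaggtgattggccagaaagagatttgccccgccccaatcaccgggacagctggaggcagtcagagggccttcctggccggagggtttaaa
Trib3: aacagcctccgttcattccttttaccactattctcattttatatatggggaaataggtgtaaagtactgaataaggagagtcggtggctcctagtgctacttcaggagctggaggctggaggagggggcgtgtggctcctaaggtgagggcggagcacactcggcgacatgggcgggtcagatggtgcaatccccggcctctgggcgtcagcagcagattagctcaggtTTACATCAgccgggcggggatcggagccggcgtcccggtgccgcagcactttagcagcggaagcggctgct
Herpud1: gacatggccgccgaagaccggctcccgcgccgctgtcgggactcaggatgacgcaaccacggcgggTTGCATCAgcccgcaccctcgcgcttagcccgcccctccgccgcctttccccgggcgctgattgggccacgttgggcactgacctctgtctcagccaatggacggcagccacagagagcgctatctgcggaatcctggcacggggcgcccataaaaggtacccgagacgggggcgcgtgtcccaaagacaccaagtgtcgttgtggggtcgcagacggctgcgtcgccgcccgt
The metal response letters in this loose form stood 7 times in the Mt1 window and 5 times in that of Mt2A. At least 1 such match was found in 60.5% of all windows, at least 5 in 0.963% and at least 7 in 0.0696%. The heat shock element stood in 0.464% of all windows and the C/EBP-ATF element in 2.03%. A match of letters is a description of the window and not a measured binding site.

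The libraries labelled 200 µM differed broadly from those at 100 µM, with stress genes many-fold higher and the metallothioneins lower. Of the 10575 genes tested 5663 (53.6%) were called, 2799 (26.5%) higher and 2864 (27.1%) lower at 200 µM. The median log2 ratio over all tested genes was -0.01, its median size was 0.29, and the median standard error was 0.10. A log2 ratio of at least 1 in size was reached by 1075 called genes (10.2%), 595 higher (5.63%) and 480 lower (4.54%), beside 140 (1.32%) at 100 µM and 1299 (12.3%) at 200 µM against control. The large differences were mostly increases: 95 called genes had a log2 ratio of 3 or more and 12 of -3 or less. Those 95 were genes of low level, with a median of 0.482 CPM over the control and 100 µM groups, against 34.7 CPM over all tested genes. Such genes can pass the filter through the libraries where they are high, so both counts are a description. CPM did not overlap between the doses for 6232 genes (58.9%). Scaled by library totals alone, 1073 genes stood higher and 6282 lower, so that 14.6% of called genes were higher instead of 49.4%, and the median of all genes shifted by -0.34. Differences are reported relative to the TMM scale, and groups whose direction turns under library totals are named as such. A count of called members of a list is to be read beside the 26.5% higher and 27.1% lower of all tested genes.

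**Figure D1:**
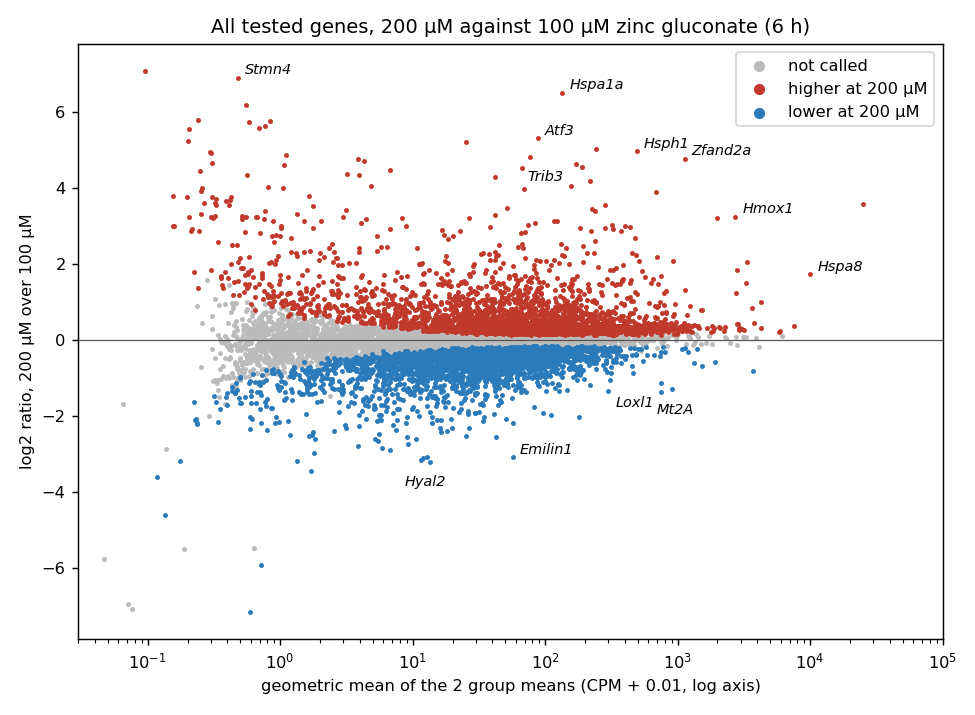
Each point is a tested gene, with its geometric mean level at 100 and 200 µM (CPM, log axis) and its log2 ratio of 200 over 100 µM; red and blue genes are called higher (2799) or lower (2864). The spread reaches farther upward, with 38 called genes at a log2 ratio of 4 or more against 3 at -4 or less, and fitted ratios of genes of few counts, such as Stmn4, depend on the prior count.

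Mt1, Mt2A and the zinc exporter gene Slc30a1 rose at both doses against control and stood lower at 200 than at 100 µM. Mt1 encodes a small cytosolic zinc-binding protein and read 48.8, 49.2 and 36.8 CPM in the controls, 1439, 1479 and 1339.9 CPM at 100 µM and 543, 685 and 526 CPM at 200 µM. The 3 groups did not overlap, and the level at 100 µM was 2.43 times that at 200 µM (log2 ratio of 200 over 100 µM -1.28 ± 0.14). Mt2A, the second metallothionein tested, read 88.0, 79.8 and 65.2 CPM, 1203, 1265 and 1118 CPM and 421, 521 and 445 CPM in the same order, a log2 ratio of -1.37 ± 0.11. Mt1 and Mt2A are alike in sequence, and how reads matching both were counted is not given in the sources used here. The exporter gene Slc30a1 read 22.2, 20.9 and 23.9 CPM, 98.9, 80.3 and 86.7 CPM and 73.1, 67.6 and 68.6 CPM, so that its levels at both doses lay far above control and differed from each other by a log2 ratio of -0.35 ± 0.08. Mtf1, the gene of the zinc-sensing factor itself, rose between the doses from a mean of 26.0 to 38.3 CPM (0.57 ± 0.08), and Slc30a7, which carries zinc into the secretory pathway, rose by 0.25 ± 0.07. Of 10 tested genes of metal binding and zinc export, 2 rose and 3 fell between doses (median -0.10), shares near the 26.5% and 27.1% of all tested genes. Under library totals 1 rose and 6 fell (median -0.44). The ratio of Slc30a7 was smaller in size than the shift of all genes under that scaling (-0.34), and that of Slc30a1 was close to it.

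Of 10 tested zinc importers of the Slc39 family 4 fell and 1 rose, while 27.1% of all tested genes fell, and 5 were not called (median log2 ratio -0.19). Slc39a14, which also carries iron and manganese, read 77.4, 72.0 and 72.5 CPM at 100 µM and 55.2, 48.6 and 55.7 CPM at 200 µM (-0.48 ± 0.07), Slc39a13 differed by -0.42 ± 0.07, Slc39a3 by -0.52 ± 0.11 and Slc39a9 by -0.28 ± 0.09. Slc39a11 was the member that rose (0.40 ± 0.09). These ratios were close to the shift of all genes under library totals, where 9 of the 10 stood lower.

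Antioxidant genes of the Nrf2 response fell into members that rose further at 200 µM and members that did not. Of 29 tested genes 15 rose and 3 fell between doses (median 0.21), while 22 rose against control at 100 µM (9.1% of all tested genes) and 22 at 200 µM (29.4% of all). Under library totals the count between doses was 11 higher and 12 lower, with a median of -0.13. Hmox1, the haem-degrading enzyme, read 42.4, 48.4 and 39.1 CPM in the controls, 1021, 816 and 789.5 CPM at 100 µM and 8015, 9140.4 and 7991 CPM at 200 µM. Its 3 groups did not overlap, and the step between doses was 9.57-fold (3.26 ± 0.11). Srxn1, the sulfiredoxin that repairs peroxiredoxins, read 84.1, 86.6 and 84.2 CPM, 173, 134 and 157 CPM and 1217, 1215 and 1238 CPM, so that most of its rise lay between the doses (2.98 ± 0.07). Txnrd1, thioredoxin reductase, rose by 0.93 ± 0.07 between doses and Akr1b8, an aldo-keto reductase with close paralogs, by 1.26 ± 0.11. Gclm and Gsr did not rise further. Gclm, the modifier subunit of the first enzyme of glutathione synthesis, read 27.4, 31.2 and 36.0 CPM in the controls, 69.8, 57.3 and 64.7 CPM at 100 µM and 65.4, 64.3 and 64.8 CPM at 200 µM, a difference of 0.01 ± 0.08 with a 95% interval of -0.16 to 0.19 and an adjusted p of 0.91 by edgeR. Gsr, glutathione reductase, read 51.4, 57.0 and 61.3 CPM, 112, 95.5 and 94.0 CPM and 65.2, 73.0 and 74.8 CPM, and fell between the doses (-0.51 ± 0.09). Keap1, the gene of the protein that holds Nrf2 back, read 47.1, 52.6 and 51.0 CPM, 64.7, 66.3 and 60.7 CPM and 30.7, 38.9 and 34.4 CPM, above control at 100 µM and below it at 200 µM (-0.88 ± 0.10).

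Iron genes that go with haem breakdown were partly alike. Of 14 tested genes of iron handling 7 rose (26.5% of all tested genes) and 3 fell (27.1% of all), with a median of 0.13. Under library totals 3 rose and 6 fell (median -0.22). Ftl1, the ferritin light chain, read 1684, 1858 and 1658 CPM in the controls, 2794, 2901 and 2430.5 CPM at 100 µM and 4603, 5452 and 4602 CPM at 200 µM (0.85 ± 0.10), and Slc40a1, the iron exporter ferroportin, rose by 0.98 ± 0.20. Ncoa4, the receptor that delivers ferritin for breakdown, read 131, 135 and 123 CPM and 68.1, 65.1 and 71.4 CPM at the 2 doses (-0.92 ± 0.06), and Ireb2, an iron-sensing regulator of transferrin receptor and ferritin, read 67.9, 64.7 and 63.0 CPM and 32.3, 28.6 and 27.7 CPM (-1.15 ± 0.10). Neither was called against control at 100 µM, with means of 129.5 against 129.9 CPM and 65.2 against 60.2 CPM.

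Chaperones of the heat shock response rose between the doses, some of them many-fold. Besides cytosolic members their list holds Hspd1, Hspe1 and Serpinh1, which belong to mitochondria or the ER. Of 27 tested heat shock genes 24 rose and 1 fell, with a median log2 ratio of 1.30, while at 100 µM 9 had risen against control with a median of 0.15. Under library totals 19 rose and 2 fell (median 0.95). Hspa1a, the inducible Hsp70, read 5.09, 8.78 and 7.07 CPM in the controls, 14.9, 14.8 and 12.3 CPM at 100 µM and 1306, 1333 and 1231 CPM at 200 µM. The step between doses was 91.5-fold (6.52 ± 0.15), and since Hspa1a has a near-identical neighbouring copy, the share of reads from each cannot be given. Hsph1, the Hsp110 nucleotide exchange factor whose promoter is shown above, read 50.1, 45.7 and 49.7 CPM, 94.6, 77.4 and 88.8 CPM and 2678, 2499 and 3097 CPM (4.98 ± 0.12). Hspa8, the constitutive Hsc70 with a pair of heat shock elements in its window, read 3634, 3887 and 3782 CPM, 5717, 5089 and 5592 CPM and 17850.3, 18471 and 18279 CPM (1.74 ± 0.07), which made it 1 of the 8 genes with the largest gains in CPM. Bag3, a co-chaperone of Hsp70, read 55.2, 67.2 and 58.4 CPM, 74.3, 90.9 and 81.3 CPM and 857, 1062 and 975 CPM (3.56 ± 0.11). Dnajb1, an Hsp40, rose by 2.70 ± 0.07, Hspb1, a small heat shock protein, by 3.00 ± 0.12, Hsp90aa1 by 2.07 ± 0.16 and Hsp90ab1 by 1.502 ± 0.06. Hspa2, the Hsp70 of the testis, was the member that fell (-0.53 ± 0.15). The heat shock element stood in 7 of the 23 windows of this list (Chordc1, Dnaja1, Hspa8, Hspd1, Hspe1, Hsph1 and Serpinh1) and in 40 of all 8620.

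Genes of ubiquitin and protein breakdown rose beside the chaperones, in part by small steps. Ubb, a polyubiquitin gene, rose by 1.85 ± 0.06, and since other genes hold the same ubiquitin sequence, its reads may have been split with theirs. Zfand2a, an arsenite-inducible protein that binds the proteasome, read 79.9, 83.2 and 82.7 CPM, 244, 199 and 204 CPM and 5626, 6178 and 5926 CPM, rising at 100 µM already and by a further 4.78 ± 0.12 between doses. Of 18 tested genes of ubiquitin and VCP 12 rose and 2 fell (median 0.44), and 6 rose and 6 fell under library totals (median 0.09). Proteasome subunits moved little: 17 of 33 rose and 1 fell (median 0.17), with Psmd8 the most distinct at 0.70 ± 0.07. The cytosolic chaperonin CCT had 6 of 8 members higher (median 0.38), among them Cct7 at 0.54 ± 0.07. Under library totals 1 proteasome gene rose and 17 fell (median -0.18), and 1 CCT gene rose and 2 fell (median 0.04). Sqstm1, a cargo receptor of autophagy, read 572, 497 and 436 CPM, 454, 464 and 422 CPM and 1788, 2022 and 1857 CPM (2.08 ± 0.09), and Gabarapl1, a protein of the autophagosome membrane, rose by 1.33 ± 0.09. Of 29 tested genes of autophagy and lysosome 22 rose and 0 fell by edgeR (median 0.31), where an unadjusted p under 0.05 gave 0 lower and DESeq2 0. Under library totals 7 rose and 6 fell.

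**Figure D2:**
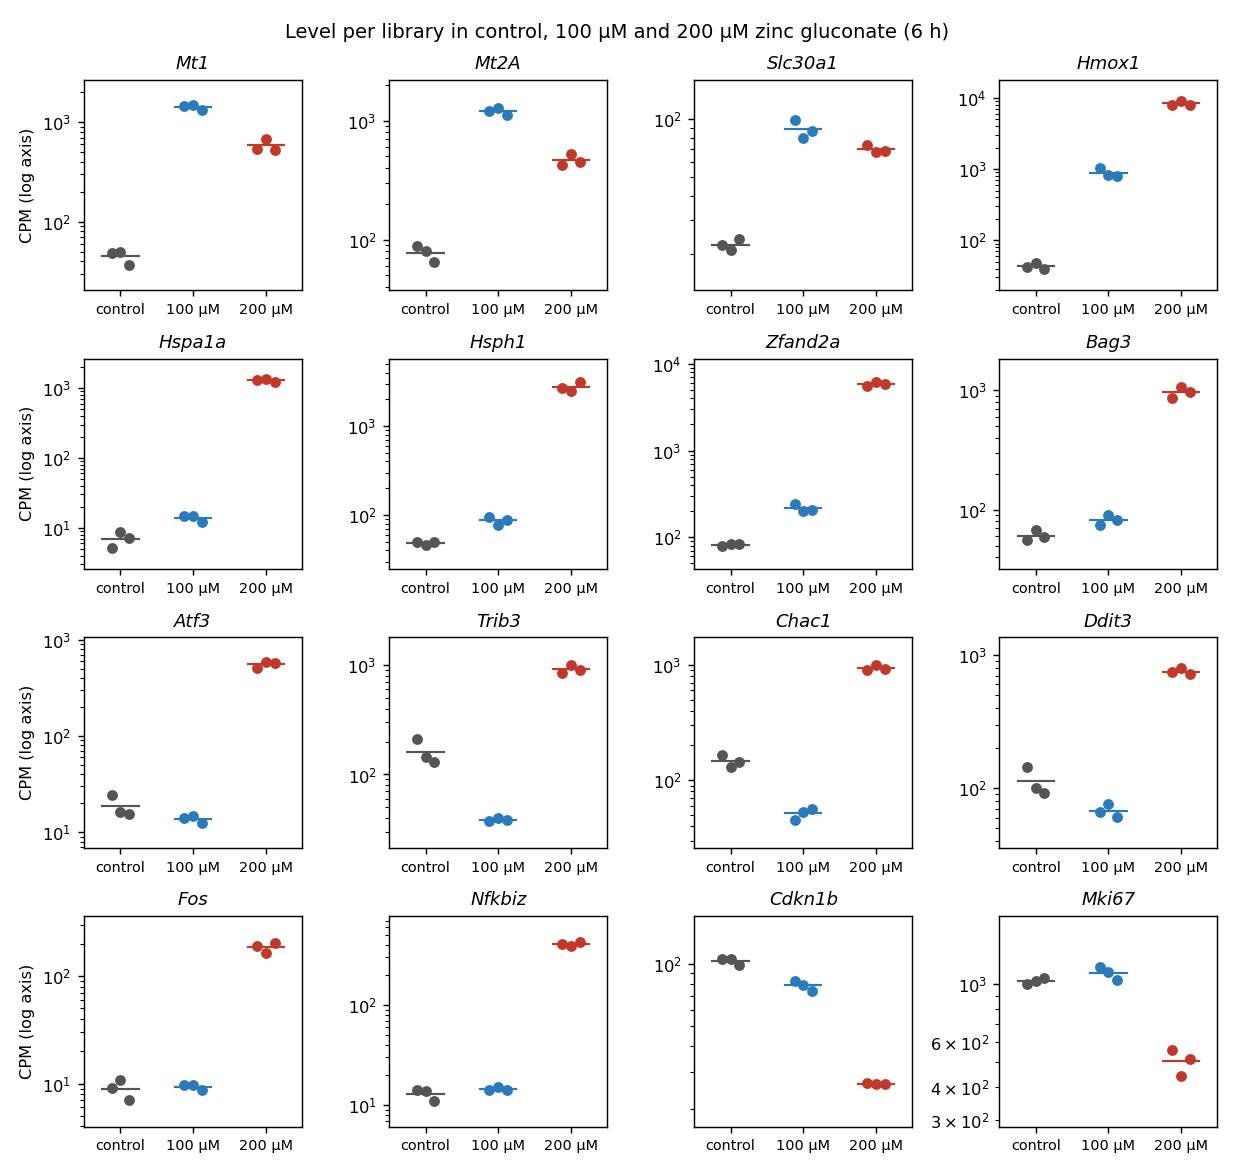
Levels of 16 genes per library (CPM, log axis, dots) with the mean of 3 libraries (bars) in untreated cells, at 100 µM and at 200 µM zinc gluconate. Mt1, Mt2A and Slc30a1 are highest at 100 µM, Hspa1a, Hsph1, Zfand2a and Bag3 stand far apart at 200 µM, and Trib3, Chac1 and Ddit3 lie below control at 100 µM and above it at 200 µM.

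Targets of ATF4 and CHOP stood below control at 100 µM and rose between the doses. Of 30 tested genes of this list 27 rose and 1 fell between doses, with a median log2 ratio of 1.09. Against control 27 fell and 0 rose at 100 µM (median -0.99), where DESeq2 and library totals each gave 28 lower and 0 higher and an unadjusted p under 0.05 gave 0 higher, while 8.1% of all tested genes were called lower. At 200 µM 14 were above control (29.4% of all tested genes) and 11 below it (31.1% of all), so that the list divided (median 0.13). Under library totals 11 were above and 15 below (median -0.25). Atf4 itself read 947, 804 and 852 CPM in the controls, 514, 511 and 535 CPM at 100 µM and 995, 1009 and 1125 CPM at 200 µM (1.00 ± 0.08). Atf3, a stress-induced factor of the same family, read 24.2, 16.1 and 15.4 CPM, 14.2, 14.9 and 12.5 CPM and 509, 581 and 576 CPM, a 40.0-fold step between the doses (5.32 ± 0.15). Ddit3, the gene of CHOP, read 144, 101 and 92.3 CPM, 66.8, 76.2 and 60.7 CPM and 746, 793 and 713 CPM (3.47 ± 0.14). All 3 groups of Ddit3 were apart, with the 100 µM libraries lowest. Ppp1r15a, the phosphatase subunit that reverses the block on translation, rose by 3.91 ± 0.13 and Ddit4, an inhibitor of the growth kinase mTOR, by 4.07 ± 0.10.

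Members of the list that supply amino acids rose between doses without all reaching control. Asns, asparagine synthetase, read 276, 202 and 207 CPM in the controls, 60.3, 56.4 and 61.9 CPM at 100 µM and 123, 138 and 125 CPM at 200 µM: it rose between doses (1.11 ± 0.10) and lay below control at 200 µM (-0.83 ± 0.09). Mthfd2, a mitochondrial enzyme of folate metabolism, read 366, 288 and 318 CPM, 159, 150.3 and 177 CPM and 596, 558 and 604 CPM and passed control (0.86 ± 0.08). The amino acid transporter gene Slc7a5 crossed it too, at 406, 342 and 339.9 CPM, 161, 169 and 176 CPM and 484, 563 and 495 CPM. Stc2, the secreted stanniocalcin, was the member that fell, with 67.2, 54.3 and 56.6 CPM, 30.4, 28.6 and 38.5 CPM and 17.0, 19.0 and 19.1 CPM (-0.82 ± 0.12).

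Transfer RNA synthetases, which charge transfer RNAs with amino acids and include known ATF4 targets, gave the same shape at smaller size. Of 19 tested cytosolic synthetases 16 rose and 2 fell between doses (median 0.63), and at 100 µM 14 were below control (median -0.82). At 200 µM 7 stood above control and 6 below it, shares near the 29.4% and 31.1% of all tested genes, and these counts were 2 and 3 with the heart term and 1 and 13 under library totals. Aars1, the alanine enzyme, read 435, 407 and 395 CPM in the controls, 241, 264 and 267 CPM at 100 µM and 757, 811 and 766 CPM at 200 µM (1.60 ± 0.06). Cars1, the cysteine enzyme, read 282, 259 and 258 CPM, 128, 137 and 135 CPM and 343, 342 and 343 CPM (1.37 ± 0.06), and Sars1, the serine enzyme, rose by 1.45 ± 0.10. Vars1, the valine enzyme, was among the members that fell between doses (-0.19 ± 0.08).

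Chaperones of the ER rose between the doses, while at 100 µM 4 of the list were below control and the rest were not called. Of 22 tested genes of the ER and the unfolded protein response 20 rose and 0 fell between doses (median 0.76), with 0 lower at an unadjusted p under 0.05 and 0 by DESeq2. Under library totals 15 rose and 2 fell. Hspa5, the ER chaperone BiP, read 706, 605 and 629.9 CPM in the controls, 668, 635 and 646 CPM at 100 µM and 5933, 6378 and 5867 CPM at 200 µM, a 9.33-fold step (3.22 ± 0.07). Dnajb9, a co-chaperone of BiP, read 18.4, 14.6 and 16.0 CPM, 16.9, 15.6 and 13.3 CPM and 197, 135 and 192 CPM (3.50 ± 0.17). Manf, a secreted ER stress protein, rose by 1.53 ± 0.07, Hyou1, an ER relative of Hsp110, by 1.27 ± 0.06, and Calr, the calcium-binding chaperone calreticulin, by 1.00 ± 0.08. Ern1, the stress sensor IRE1, was below control at 100 µM and above it at 200 µM, with 28.6, 27.6 and 23.2 CPM, 18.0, 19.8 and 18.6 CPM and 104, 75.8 and 99.2 CPM (2.31 ± 0.12). Xbp1, whose messenger RNA is spliced by that sensor, rose by 0.63 ± 0.10, and gene counts do not tell its spliced form apart.

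**Figure D3:**
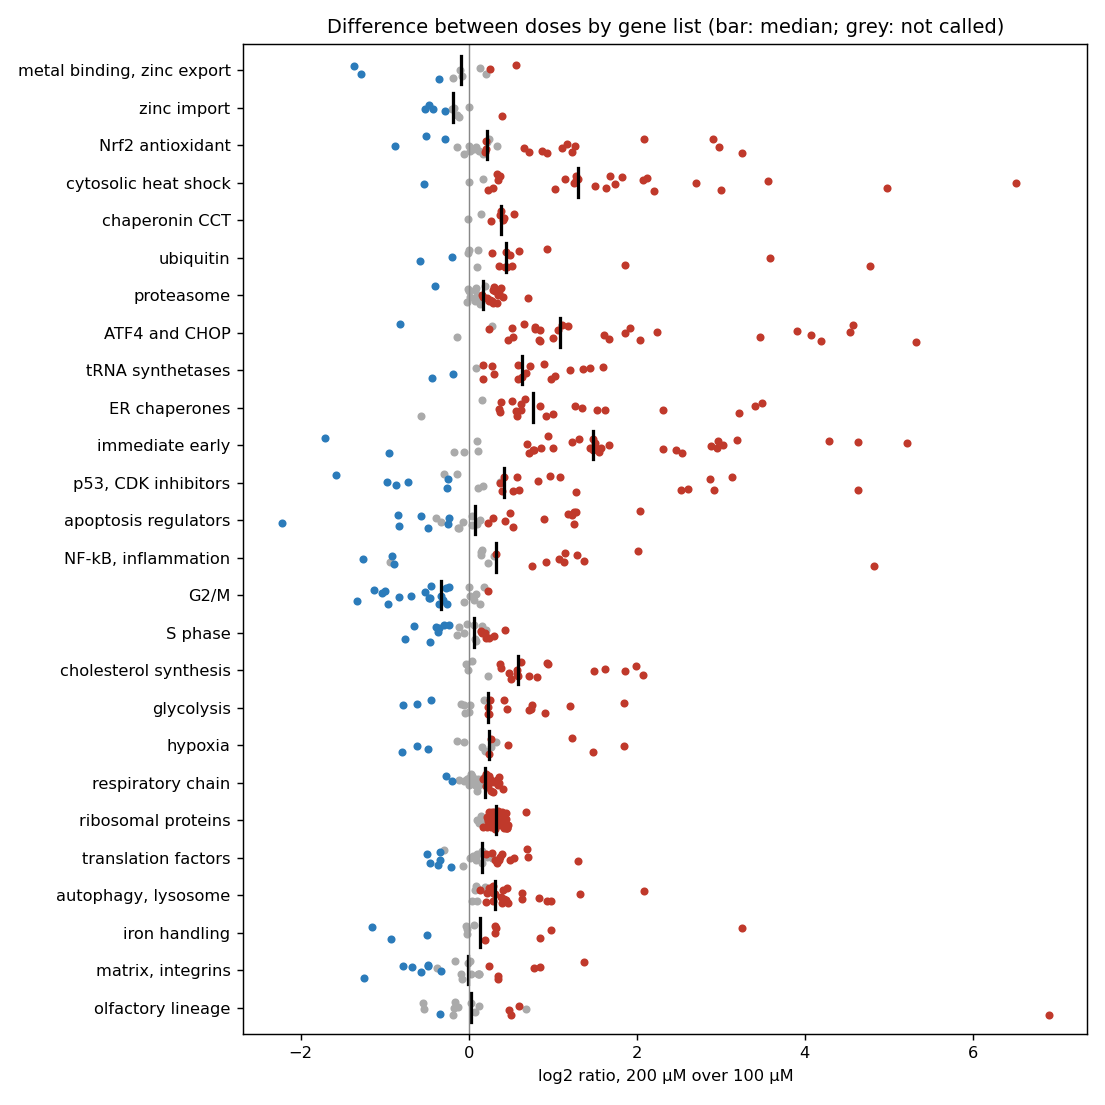
Log2 ratio of 200 over 100 µM for each tested gene of 26 gene lists, red where called higher, blue where called lower and grey where not called, with black bars at the medians. Heat shock (median 1.30), immediate early (1.48) and ATF4 and CHOP genes (1.09) extend farthest to the right, and G2/M genes lie mostly to the left (-0.33). Some lists with small positive medians, such as the proteasome (0.17), turn negative under scaling by library totals (-0.18).

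Genes called against control at both doses with opposite signs numbered 209 (1.98% of those tested). Of these 106 (1%) were lower than control at 100 µM and higher at 200 µM, and 103 (0.974%) were higher at 100 µM and lower at 200 µM. These genes were chosen by their values against control, so their difference between doses is given as a description with no test, and both ratios share the control libraries. A log2 ratio of at least 0.5 in size at both doses was met by 53 of them, 39 lower-then-higher and 14 higher-then-lower. With a term for the heart-transcript libraries 40 and 21 genes were left in those directions, without control replicate 1 80 and 45, without 100 µM replicate 1 83 and 66, without 100 µM replicate 3 86 and 66, and under library totals 66 and 190. The count of genes changed at 100 µM against control, 1819 (17.2%), was 933 with the heart term, 1026 without control replicate 1, 1204 without 100 µM replicate 1 and 1210 without 100 µM replicate 3, and that at 200 µM, 6402 (60.5%), was 3898 with the heart term. With the heart term the 100 µM ratio against control rests on replicate 1 alone, so its lower counts can come from fewer libraries. Near-threshold members are many among the 209, and the genes given below have the largest ratios at both doses.

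Genes lower at 100 µM and higher at 200 µM held 12 of the 30 ATF4 and CHOP targets and 6 of the 19 synthetases. With the heart term these counts were 8 and 2, and under library totals 10 and 1. Trib3, a pseudokinase induced by CHOP, read 212, 145 and 129 CPM in the controls, 37.7, 40.1 and 38.4 CPM at 100 µM and 841, 1012 and 897 CPM at 200 µM, which is -2.07 ± 0.15 and 2.5 ± 0.14 against control. Chac1, an enzyme that breaks down glutathione, read 165, 130.1 and 144 CPM, 45.3, 52.96 and 56.4 CPM and 898, 986 and 928 CPM (-1.51 ± 0.09 and 2.68 ± 0.09). Sesn2, a sestrin that senses leucine, read 32.1, 29.3 and 26.9 CPM, 14.4, 13.9 and 13.3 CPM and 334, 311 and 324 CPM (-1.08 ± 0.08 and 3.46 ± 0.07). In none of these genes did any library of one group reach the range of another. Herpud1, a component of ER-associated degradation, read 175, 149.5 and 138 CPM, 67.5, 83.5 and 70.4 CPM and 719, 937 and 681 CPM, and Gadd45a, a growth arrest gene, read 335, 196 and 211 CPM, 118, 109 and 125 CPM and 907, 843 and 927 CPM. Control replicate 1 was the highest control for both, as it was for Trib3 and Ddit3. Outside those lists Stbd1, a glycogen-binding protein, read 26.3, 16.5 and 15.2 CPM, 7.60, 6.79 and 7.52 CPM and 52.7, 43.0 and 44.8 CPM, and Inpp5d, an inositol phosphatase best known from blood cells, read 1.36, 0.887 and 0.831 CPM, 0.363, 0.697 and 0.301 CPM and 4.91, 6.09 and 6.54 CPM. The fall of Inpp5d at 100 µM (-1.28 ± 0.33) was no longer called without control replicate 1 or without 100 µM replicate 1. Nppb, the natriuretic peptide of the heart, read 2.19, 0.0317 and 2.67 CPM, 0.0778, 0 and 0.0752 CPM and 5.49, 4.45 and 5.26 CPM: 2 of its controls are heart-transcript libraries with high sums, and with the heart term neither ratio against control was called.

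The C/EBP-ATF element stood in 12 of the 99 windows of the lower-then-higher genes (12.1%), in 0 of the 87 windows of the higher-then-lower genes and in 2.03% of all windows. The 12 genes were Aars1, Cars1, Ccdc28a, Cdyl, Chac1, Herpud1, Iars1, Man1b1, Nars1, Slc7a1, Tars1 and Trib3. In Chac1, Trib3 and Herpud1 it can be read in capitals above. Among the 27 windows of the ATF4 and CHOP list it stood in 7 (Chac1, Fgf21, Inhbe, Nupr1, Pycr1, Slc7a1 and Trib3). This list was made of known targets, so these letters are not independent of it. Other elements were searched too. TGANTCA, the element of AP-1 (Fos with Jun), stood in 12.1% of lower-then-higher, 1.15% of higher-then-lower and 5% of all windows. The metal response letters stood in 55.6%, 75.9% and 60.5%. TGACNNNGC, the element of Nrf2, stood in 5 of 26 windows of the Nrf2 list (19.2%) and in 14.8% of all. No test of these shares was made.

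Genes higher at 100 µM and lower at 200 µM changed less. Lfng, a glycosyltransferase that modifies Notch, read 27.7, 38.2 and 41.3 CPM in the controls, 74.1, 64.0 and 75.9 CPM at 100 µM and 17.0, 15.5 and 16.6 CPM at 200 µM (1.00 ± 0.11 and -1.13 ± 0.12 against control). Has2, a hyaluronan synthase, read 25.7, 22.6 and 29.6 CPM, 47.0, 39.7 and 44.3 CPM and 14.7, 9.68 and 13.01 CPM. Cyp1b1, a cytochrome P450 of the dioxin response, read 23.1, 20.9 and 19.95 CPM, 37.98, 34.7 and 29.4 CPM and 4.16, 3.20 and 4.25 CPM, the lowest level at 200 µM relative to control among these 8 genes (-2.46 ± 0.14). The groups of all 3 genes were apart from one another. Ier5l, a relative of an immediate early gene, read 33.9, 44.3 and 41.5 CPM, 68.6, 56.4 and 57.7 CPM and 20.8, 17.5 and 18.1 CPM, and Synm, an intermediate filament protein, read 23.2, 30.1 and 29.2 CPM, 42.3, 45.1 and 37.1 CPM and 18.0, 14.5 and 17.9 CPM. Kank2, an adaptor of the cytoskeleton, Cdx2, a homeobox factor, and Ankrd34a made up the rest, with ratios at 100 µM of 0.58, 0.61 and 0.59 and at 200 µM of -0.59, -0.94 and -1.58. Keap1 and Nfkbia, both genes of inhibitors that hold back a stress factor, were also among the 103.

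**Figure D4:**
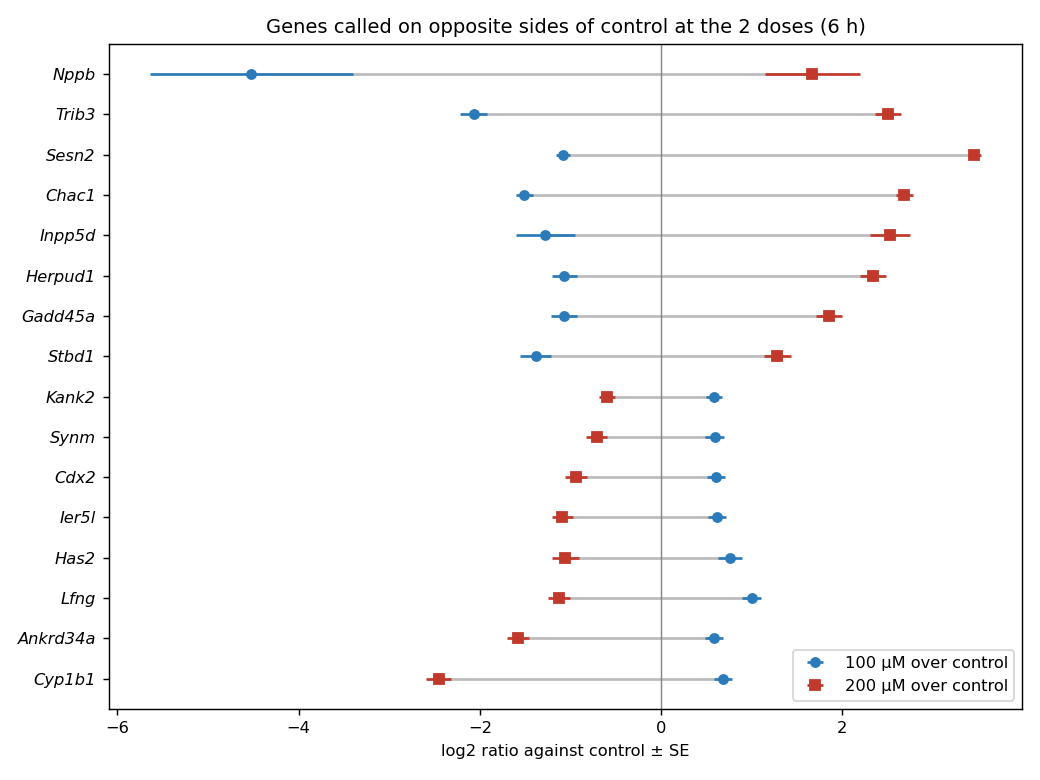
Log2 ratio against untreated control ± SE at 100 µM (blue dots) and 200 µM (red squares) for 16 genes with opposite signs at the 2 doses, 3 libraries a group. Trib3 runs from -2.07 to 2.5 and Sesn2 from -1.08 to 3.46, while Lfng runs from 1.00 to -1.13; the wide bars of Nppb go with its few counts.

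Immediate early genes, which are switched on within minutes of a signal, rose between the doses in 28 of 34 tested cases and fell in 2 (median 1.48, and 1.14 under library totals). Fos read 9.04, 10.8 and 7.03 CPM in the controls, 9.73, 9.67 and 8.80 CPM at 100 µM and 189, 163 and 203 CPM at 200 µM, so that the 100 µM libraries lay within the range of the controls and the 200 µM libraries far above (4.29 ± 0.14). Fosb read 2.98, 3.99 and 4.02 CPM, 4.62, 4.27 and 3.38 CPM and 155, 142 and 176 CPM (5.22 ± 0.14), and Jun, their partner in the factor AP-1, read 96.4, 104 and 91.6 CPM, 113, 97.1 and 103 CPM and 510.3, 508 and 537 CPM (2.31 ± 0.07). Maff, a small Maf factor that also pairs with Nrf2, rose by 2.95 ± 0.07. Egr1 rose less, by 1.01 ± 0.11. Dusp6, a phosphatase that limits ERK signalling, was a member that fell (-0.95 ± 0.12), and Ier5l was the other.

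Genes of NF-kB and inflammation moved in both directions. Nfkbiz, an atypical inhibitor protein that steers NF-kB at chosen promoters, read 14.2, 13.9 and 10.9 CPM in the controls, 14.1, 15.2 and 14.1 CPM at 100 µM and 405, 386 and 429 CPM at 200 µM, a 28.3-fold step (4.82 ± 0.12). Nfkbia, the classical inhibitor and an early target of NF-kB, went the other way, with 27.5, 39.4 and 35.3 CPM, 44.8, 51.2 and 43.2 CPM and 23.1, 26.2 and 25.7 CPM (-0.88 ± 0.11). Cxcl1, a chemokine, read 11.5, 12.7 and 15.9 CPM, 36.3, 26.7 and 33.5 CPM and 13.3, 13.6 and 13.8 CPM: it rose at 100 µM and was back in the control range at 200 µM. Nfkbib, another inhibitor of NF-kB, rose by 1.07 ± 0.08. Ptgs2, a cyclooxygenase of inflammation, rose by 1.37 ± 0.09 between doses, and Il6 was near its floor at 100 µM, with 0.311, 0 and 0.226 CPM against 0.915, 1.02 and 0.944 CPM at 200 µM. In all 10 of 19 tested genes rose and 3 fell (median 0.33, and -0.02 under library totals).

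Among cell cycle inhibitors p21 and p27 moved in opposite directions between the doses. Cdkn1a, the gene of p21, read 155, 106 and 119.7 CPM in the controls, 93.6, 88.6 and 105 CPM at 100 µM and 556, 584 and 616 CPM at 200 µM (2.61 ± 0.11). Cdkn1b, the gene of p27, read 105, 105 and 98.8 CPM, 82.8, 79.2 and 74.3 CPM and 26.5, 26.4 and 26.4 CPM (-1.58 ± 0.07), with a step down at each dose. Btg2, an antiproliferative p53 target and immediate early gene, read 52.7, 42.9 and 43.5 CPM, 32.8, 29.7 and 40.4 CPM and 801, 759 and 1001 CPM (4.64 ± 0.16). Plk3, a stress-responsive kinase, rose by 3.13 ± 0.10, whereas Sesn1, a sestrin regulated by p53, fell (-0.87 ± 0.12) where its relative Sesn2 had risen. Of 27 tested p53 targets and inhibitors of cyclin-dependent kinases 16 rose and 6 fell (median 0.42), and 11 rose and 9 fell under library totals (median 0.08).

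Genes of mitosis stood lower at 200 µM. Of 25 tested G2/M genes 17 fell and 1 rose (median -0.33), against 27.1% of all tested genes lower. At 100 µM 2 were higher than control, calls that the heart term did not keep. Mki67, a marker of cycling cells, read 1003, 1026 and 1057 CPM in the controls, 1159.7, 1113 and 1035 CPM at 100 µM and 559, 444 and 514 CPM at 200 µM (-1.12 ± 0.10). Plk1, the mitotic kinase, read 141, 148 and 146 CPM, 151, 161 and 170.4 CPM and 63.5, 72.7 and 56.8 CPM (-1.32 ± 0.10), and Top2a, a topoisomerase of chromosome condensation, read 431, 454 and 484 CPM, 456, 454 and 416 CPM and 233, 216 and 198 CPM (-1.03 ± 0.08). For all 3 genes the 100 µM libraries were near the controls and the 200 µM libraries apart. Of 26 S phase genes 7 were higher and 8 lower, shares near the 26.5% and 27.1% of all tested genes, and with the heart term 4 and 9. Cdc6, which loads the replicative helicase, fell by 0.76 on the log2 scale. Under library totals 22 of the 25 G2/M genes and 22 of the 26 S phase genes stood lower.

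Regulators of apoptosis had no common direction, with 12 of 28 higher and 7 lower (median 0.07), or 8 higher and 15 lower under library totals (median -0.28). Of all tested genes 26.5% were higher and 27.1% lower between the doses. Bcl2l1, the survival protein Bcl-xL, read 59.1, 56.3 and 64.1 CPM at 100 µM and 134, 149 and 145 CPM at 200 µM (1.25 ± 0.08). Bmf, a death-promoting BH3-only protein, read 5.91, 8.80 and 5.64 CPM and 1.25, 1.33 and 1.62 CPM (-2.23 ± 0.33), and Birc2, an inhibitor of apoptosis, read 389, 399 and 386 CPM and 231, 206 and 222 CPM (-0.83 ± 0.07). Casp8, the initiator caspase of death receptors, rose by 1.23 ± 0.09, and Casp12, a caspase of the ER, read 24.6, 14.6 and 16.4 CPM in the controls, 5.68, 5.23 and 6.54 CPM at 100 µM and 24.2, 19.99 and 27.0 CPM at 200 µM, below control at 100 µM and not called against it at 200 µM.

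Genes of cholesterol synthesis, driven by the factor SREBP2, rose in 17 of 21 cases and fell in 0 by edgeR (median 0.59), with 0 lower at an unadjusted p under 0.05 and 0 by DESeq2. Under library totals 12 rose and 3 fell. Msmo1, a late enzyme of the pathway, read 197, 207 and 251 CPM in the controls, 257, 225 and 259 CPM at 100 µM and 1002, 1067 and 1066 CPM at 200 µM (2.08 ± 0.09). Hmgcs1, an early enzyme, read 229, 292 and 339 CPM, 362, 370.5 and 374 CPM and 1258, 1047 and 1106 CPM (1.62 ± 0.11). The groups at 100 and 200 µM were wide apart for both genes.

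Glucose and hypoxia genes parted between the doses. Slc2a1, the glucose transporter GLUT1, read 103, 99.4 and 102 CPM in the controls, 183, 153 and 176 CPM at 100 µM and 591, 638 and 619 CPM at 200 µM (1.85 ± 0.08). Hk2, a hexokinase, rose by 1.21 ± 0.12 and Vegfa, the vascular growth factor that is also an ATF4 target, by 1.48 ± 0.10. Other hypoxia genes stood highest at 100 µM: Car9, a carbonic anhydrase, read 29.0, 27.6 and 32.1 CPM, 62.2, 54.4 and 70.4 CPM and 36.8, 35.4 and 36.3 CPM (-0.79 ± 0.12), and Pdk1, which restrains pyruvate use, read 24.4, 23.6 and 23.9 CPM, 40.1, 34.5 and 39.0 CPM and 25.4, 25.3 and 24.1 CPM (-0.61 ± 0.09). Of 21 tested glycolysis genes 12 rose and 3 fell between doses, and of 15 hypoxia genes 6 rose and 3 fell. Under library totals the counts were 6 and 9, and 2 and 5.

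Genes of the translation and energy machinery moved by small steps whose direction depends on the scaling. Of 59 tested cytosolic ribosomal protein genes 55 were higher and 0 lower at 200 µM (median 0.33), but under library totals 1 was higher and 5 lower (median -0.01). An unadjusted p under 0.05 gave 0 lower and DESeq2 0. Rpl10, of the large subunit, stood higher by 0.68 ± 0.07. Of 43 respiratory chain genes 22 were higher and 2 lower (median 0.19, and -0.15 under library totals), and of 31 translation factors 12 were higher and 6 lower, or 3 and 16 under library totals. Eif1, which guards the choice of the start codon, stood out with 526, 516 and 527 CPM at 100 µM and 1264, 1252 and 1334 CPM at 200 µM (1.30 ± 0.07).

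Very low genes that appeared at 200 µM made up part of the highest ratios. Stmn4, a stathmin of neurons, read 0.0778, 0 and 0 CPM at 100 µM and 7.40, 5.31 and 6.61 CPM at 200 µM. Sorl1, a sorting receptor of the secretory pathway, read 0.130, 0.0871 and 0.0752 CPM and 7.73, 5.08 and 6.54 CPM. Cd300lb, a receptor known from myeloid cells, read 0.104, 0.0871 and 0.0752 CPM and 5.24, 3.90 and 5.32 CPM, and Nlrp6, an innate immune sensor, read 0.0519, 0 and 0 CPM and 1.83, 1.64 and 2.83 CPM. In the 100 µM libraries these genes had few counts, so no fold is given. Leukocyte markers summed to 20.3 to 21.5 CPM at 100 µM and 19.2 to 21.0 CPM at 200 µM, and of the 3 tested 1 was higher and 1 lower. Whether such cells took part was not tested. Of 15 olfactory lineage genes, Stmn4 among them, 4 rose and 1 fell, or 1 and 7 under library totals, the 4 being near the 26.5% of all tested genes. All 26 olfactory lineage genes in the file, tested or not, summed to 505 to 542 CPM at 100 µM and 528 to 546 CPM at 200 µM.

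The genes with the lowest ratios were an unlike set of matrix, glycan and nuclear proteins. Hyal2, a hyaluronidase, read 31.4, 35.6 and 36.8 CPM in the controls, 41.5, 42.6 and 39.1 CPM at 100 µM and 4.08, 4.76 and 4.45 CPM at 200 µM (-3.21 ± 0.11). Emilin1, a glycoprotein of elastic fibres, read 123, 171 and 145 CPM, 166, 174 and 155 CPM and 20.4, 17.9 and 20.4 CPM (-3.07 ± 0.11). Pcdh18, a protocadherin, read 5.80, 7.22 and 6.76 CPM, 5.37, 5.75 and 5.49 CPM and 0.665, 0.469 and 0.404 CPM (-3.43 ± 0.25). The 200 µM libraries were far below both other groups for these genes. Hyal2 was also called above control at 100 µM (0.25) and is 1 of the 103 higher-then-lower genes. Dbr1, which opens the lariats left by splicing, read 40.4, 34.6 and 35.6 CPM at 100 µM and 4.41, 4.45 and 4.38 CPM at 200 µM (-3.07 ± 0.11), Zbtb45, a zinc finger protein, read 31.4, 39.6 and 33.9 CPM and 3.83, 4.69 and 3.77 CPM (-3.08 ± 0.11), and Bbs10, a chaperonin-like protein of the cilium, read 15.8, 15.8 and 15.04 CPM and 2.25, 2.26 and 2.02 CPM (-2.84 ± 0.13). B3galt4 (-3.19 ± 0.26), Hpdl (-2.95 ± 0.32) and Ppp1r3c (-2.88 ± 0.25) completed the list with Cyp1b1. By loss of CPM, which weighs abundant and long transcripts, the leading genes with Mt1, Mt2A and Mki67 were Ahnak (-0.82 ± 0.11), Thbs2 (-0.57 ± 0.09), Tubb5 (-0.60 ± 0.07), Loxl1 (-1.33 ± 0.09) and Col3a1 (-0.68 ± 0.27). The collagen gene Col3a1 varied between replicates, with 1672, 2515 and 1602 CPM at 100 µM and 1028, 1501 and 1081 CPM at 200 µM, and was not called without 100 µM replicate 2, without 200 µM replicate 1 or 3, or with DESeq2 size factors in edgeR.

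Among the strongly lower genes many were short. Gene span was taken from RefSeq GRCr8 as a length only, for 10521 of the tested genes. Of the 71 called genes with a log2 ratio of -2 or less 70 had a span, with a median of 5.07 kb, and 32 of them (45.7%) spanned under 5 kb. Among all tested genes the median was 22.3 kb and the share 12.4%. The share was 22.7% for ratios of -2 to -1 and 9.89% for -1 to 0. On the higher side it was 25.5% for ratios of 3 or more, which were genes of low level, with a median of 0.482 CPM over the control and 100 µM groups, against 13.1 CPM in the lowest bin and 34.7 CPM over all tested genes. The bins share the contrast that defines them, so this is a description of which genes moved far.

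**Figure D5:**
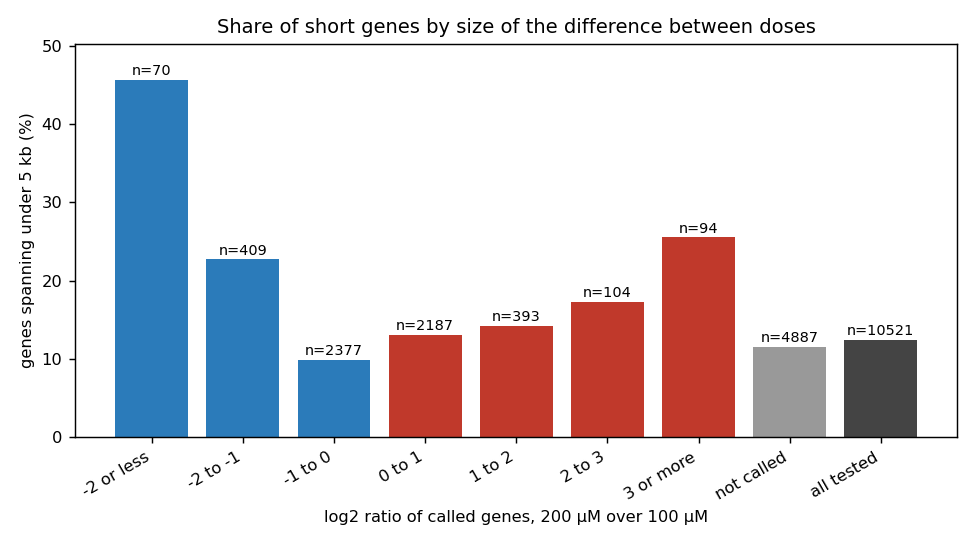
Share of genes spanning under 5 kb (bars start at 0%) for called genes binned by log2 ratio of 200 over 100 µM, for genes not called and for all tested genes, with the number of genes above each bar. The lowest bin reaches 45.7% against 12.4% of all tested genes.

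Some genes changed against control at both doses without a called difference between them. Extl1, a glycosyltransferase of heparan sulfate, read 31.3, 23.9 and 18.8 CPM in the controls, 4.88, 6.27 and 4.29 CPM at 100 µM and 3.83, 4.53 and 4.11 CPM at 200 µM, and its 95% interval for the log2 ratio between doses ran from -0.75 to 0.18. Under library totals that difference was called (-0.63). Slc17a6, a vesicular glutamate transporter, had few counts, with 0.113, 0.127 and 0.485 CPM, 1.115, 0.784 and 1.05 CPM and 1.16, 0.234 and 1.08 CPM and an interval from -1.25 to 0.64. The intervals of Cass4 (-3.95 to 0.60) and Angptl8 (-0.90 to 1.81) were wider still. Acta1 and Ankrd1, of striated muscle, were high in control replicates 1 and 3, which had the highest heart-transcript sums, with 6.63, 1.39 and 4.95 CPM and 8.93, 0.856 and 7.52 CPM, and their intervals ran from -1.55 to 1.29 and from -1.49 to 1.95.

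Markers of other cell types were summed per library. Fibroblast markers, 14 in the file, summed to 13101 to 15488 CPM at 100 µM and 13283 to 16324 CPM at 200 µM, with 3 of 12 tested genes higher (26.5% of all) and 2 lower (27.1% of all), or 1 and 2 with the heart term. Within them Pdgfra, a growth factor receptor, read 18.6, 22.8 and 14.2 CPM and 5.16, 5.15 and 5.39 CPM (-1.82 ± 0.28). Glial markers summed to 58.3 to 71.9 CPM and 58.7 to 67.8 CPM. Markers of sustentacular and basal cells summed to 84.1 to 93.3 CPM at 100 µM and 69.5 to 71.2 CPM at 200 µM, without overlap, with 1 of 4 tested genes lower and Cyp2a3, Cyp2g1, Ermn, Sox2 and Pax6 at 0. Heart muscle markers, 13 in the file, summed to 68.3, 4.70 and 5.11 CPM at 100 µM and 9.14 to 10.7 CPM at 200 µM, with 4 of 10 tested genes lower and 1 higher (Nppb). That count rests on 100 µM replicate 1: without it 1 gene was lower and the median log2 ratio was 0 instead of -5.48. The heart term, which between doses leaves out the same library, is no separate check of this. DESeq2 also called 1 lower. Ryr2, a calcium channel of heart muscle, turned to 2.16 without that library. Blood and endothelial markers stayed at 1.13 to 2.495 CPM. Whether any of these cell types took part in the differences above was not tested.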

How the data were processed

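The authors deposited whole-number read counts per gene, without normalization, for 15 libraries. Tools named in the submitters' processing notes, with no role given, are TopHat, bcl2fastq, DESeq and CASAVA 1.8, with build rn4. Not given in the sources used here are the read counter, its annotation and strand setting, and the handling of reads with several matches. Identifiers were matched to symbols through RefSeq GRCr8 (16671 of 16832), which gave names, spans and promoters but no printed coordinates, because the builds differ. Unmatched identifiers held 0.510% to 0.681% of the counts per library.

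The test was edgeR 4.0.16 in R 4.3.3 (TMM, filterByExpr, robust quasi-likelihood F test, group as the only factor, all 15 libraries). It was also run on simulated data. These held few changed genes, unlike the data here, so that run does not bear on the choice of scaling. Alternatives used DESeq2 1.42.0, limma-voom (limma 3.58.1), other scalings and filters, fewer libraries, thinning, a replicate block and a heart-transcript term. The members and gene lists were chosen with earlier results of these data known.

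The rule for named genes took Fos, Mki67, Cdkn1a, Ddit3, Hspa1a, Hmox1, Slc30a1, Mt1 and Mt2A, then the 10 highest and 10 lowest ratios among called genes that averaged at least 20 counts and did not overlap. It added the 8 largest gains and losses in CPM, 8 genes of each opposite direction, up to 3 members of each list by adjusted p, 6 genes changed alike at both doses, and up to 6 genes with at most 3 counts below 200 µM. Genes that would repeat a paragraph or have no known role were left out, some results are not reported here, and other genes given with values were chosen after these were seen.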

Additional observations from a re-analysis of the deposited data

Results flagged for a closer look

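Libraries outside the comparison also held levels away from control. Of the 9 genes that check the response, only those with all 3 libraries above every control are given, as mean CPM. Ddit3, Cdkn1a and Fos did not meet this after 12 h, nor did Mki67 under the 24 h label. After 12 h at 100 µM Mt1 stood at 1440.1 CPM, Mt2A at 1682 CPM, Slc30a1 at 70.5 CPM, Hmox1 at 169 CPM, Hspa1a at 11.4 CPM and Mki67 at 1139.7 CPM, each above the control mean, with no test made here. In the libraries labelled 24 h at 100 µM Mt1 stood at 571 CPM, Mt2A at 456 CPM, Slc30a1 at 69.5 CPM and Hmox1 at 8414 CPM. There Hspa1a stood at 1234 CPM, Ddit3 at 767 CPM, Cdkn1a at 590.1 CPM and Fos at 180.1 CPM, again above the control mean. The controls had 44.9 CPM of Mt1, 77.7 CPM of Mt2A, 22.3 CPM of Slc30a1, 43.3 CPM of Hmox1, 6.98 CPM of Hspa1a, 112 CPM of Ddit3, 127 CPM of Cdkn1a, 8.97 CPM of Fos and 1028 CPM of Mki67. The levels under the 24 h label lie close to those of the 200 µM libraries, which nearly match them library by library.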

How the results depend on the processing

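Genes changed between the doses numbered 5033 to 5711 when each library was left out in turn, with 2500 to 2820 higher and 2533 to 2891 lower. At a log2 ratio of at least 1 by edgeR the counts were 1075 changed, 595 higher and 480 lower, with 140 and 1299 changed against control at 100 and 200 µM and 0 and 10 genes in the opposite directions (higher-then-lower first, as below). Under library totals 1073 were higher and 6282 lower, and opposite genes numbered 190 and 66. The heart-transcript term left 933 and 3898 genes changed against control and 21 and 40 opposite genes. Leaving out single libraries gave 1026 to 1994 genes changed at 100 µM against control, and 45 to 113 and 80 to 113 opposite genes. The counts as reported were 1819, 103 and 106. The cause of these shifts was not tested.

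With the replicate number as a block 6187 genes changed between doses, and opposite genes numbered 170 and 164. Same-numbered libraries of both doses correlated at 0.131, 0.075 and 0.052 in their deviations across genes, so the numbers were not read as pairs, although each library correlated best with its own number.

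Of 2656 values of 127 named genes between doses under the alternatives, 2615 kept direction and side of the threshold. Directions turned under library totals for Cox7a2 (-0.0060), Vim (-0.0098), Thy1 (-0.0693) and Ankrd1 (-0.12). They turned with the heart term for Ryr2 (2.25) and Acta1 (0.45), with the block for Acta1 (0.032), after thinning to the smallest total for Angptl8 (-0.32) and Ankrd1 (-0.11), and with the 24 h libraries in place of 200 µM for Slc17a6 (0.31). With single libraries left out the log2 ratio ran from -6.88 to 2.16 for Ryr2, from -0.010 to 0.88 for Angptl8, from -0.40 to 0.45 for Acta1 and from -0.58 to 0.12 for Slc17a6. The smallest library held 10333922 counts, which limits what can be said of genes of few counts.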
